A study of Mus musculus with 18 samples.

Results

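The molecules by which macrophages signal to T cells were followed here through 7 genes, Cd80, Cd86, Icosl, Cd274, Pdcd1lg2, Cd40 and Cd83, which were taken by their symbols from the 24485 genes quantified in 18 RNA-seq libraries. The cells were bone marrow-derived macrophages (BMDMs), grown for 6 days in L929-conditioned medium from the marrow of 12-week-old male Il10-/- mice, so that every group, controls included, carried the knockout of the anti-inflammatory cytokine IL-10. Each of the 6 groups held 3 libraries, 1 for each of 3 mice. The Unstimulated group received no pretreatment. The JQ1 group received (+)-JQ1, a small molecule that keeps the BET proteins from binding acetylated histones, at 500 nM for 12 h, and the IL-10 group received recombinant IL-10 at 10 ng/mL for 12 h. A further 3 groups had the same pretreatments followed by 4 h of lipopolysaccharide (LPS), a cell wall component of Gram-negative bacteria, at 50 ng/mL, and are named LPS, LPS + JQ1 and LPS + IL-10 here. The first 3 groups had PBS in place of LPS. Cells without a pretreatment are untreated by the labels, while a vehicle control is named in the study's methods. The question is what blocking BET proteins does to the LPS response of these cells, beside what IL-10 does. Macrophages were grown in culture without T cells, and RNA was measured, not protein at the cell surface.

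A T cell that recognises its antigen needs a further signal to respond. CD80 and CD86, of the B7 family, give that signal through CD28 on the T cell and are also bound by CTLA-4, which restrains it, while ICOS ligand (Icosl) signals through the related receptor ICOS. The ligands of the inhibitory receptor PD-1 are PD-L1, encoded by Cd274, and PD-L2, encoded by Pdcd1lg2. CD40 is not a ligand but a receptor on the macrophage, through which CD40 ligand on helper T cells activates the presenting cell, and CD83 is a surface marker of mature presenting cells that protects CD86 and MHC class II from the ubiquitin ligase MARCH1. Resting macrophages make little of most of these molecules and raise them when Toll-like receptors are engaged.

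On the mouse build mm9, with the GENCODE vM1 annotation, Cd80 lies on chromosome 16 from 38459013 to 38495821 on the plus strand, and Cd86 on the same chromosome from 36603955 to 36666167 on the minus strand. Cd274 (chromosome 19, 29441945 to 29462585) and Pdcd1lg2 (chromosome 19, 29485409 to 29545647) are neighbours on the plus strand with 22823 bases between them. Icosl is on chromosome 10 (77532105 to 77546000), Cd40 on chromosome 2 (164881127 to 164898448) and Cd83 on chromosome 13 (43880476 to 43898499), all on the plus strand. None of the 7 overlapped another annotated gene on either strand, so reads counted without regard to strand could not be exchanged with an antisense gene in that annotation.

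RefSeq promoter entries on the build GRCm38.p6, another build than that of the files, were matched by symbol for 4 of the 7 genes, Cd80, Cd274, Pdcd1lg2 and Icosl. Their 250 bases before the annotated start are shown because JQ1 during LPS lowered all 4, Cd80 37.0-fold against 1.75-fold for Cd274 and 1.76-fold for Icosl, and because Cd274 and Pdcd1lg2 adjoin. Capitals mark matches, on either strand, to the 10-letter NF-kB consensus, to the AP-1 motif TGANTCA, to the interferon regulatory factor motif GAAANNGAA or to the STAT motif TTCNNNGAA.
Cd80, chr16:38458683-38458932, plus strand: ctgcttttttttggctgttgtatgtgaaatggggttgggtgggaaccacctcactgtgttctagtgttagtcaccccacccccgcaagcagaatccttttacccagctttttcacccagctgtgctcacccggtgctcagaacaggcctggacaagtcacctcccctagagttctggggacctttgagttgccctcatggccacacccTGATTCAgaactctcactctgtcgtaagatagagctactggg
Cd274, chr19:29367188-29367437, plus strand: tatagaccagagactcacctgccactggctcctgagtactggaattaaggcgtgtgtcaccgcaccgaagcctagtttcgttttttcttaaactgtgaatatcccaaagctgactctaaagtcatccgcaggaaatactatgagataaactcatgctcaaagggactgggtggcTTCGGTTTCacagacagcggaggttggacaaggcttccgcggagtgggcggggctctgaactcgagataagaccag
Pdcd1lg2, chr19:29410669-29410918, plus strand: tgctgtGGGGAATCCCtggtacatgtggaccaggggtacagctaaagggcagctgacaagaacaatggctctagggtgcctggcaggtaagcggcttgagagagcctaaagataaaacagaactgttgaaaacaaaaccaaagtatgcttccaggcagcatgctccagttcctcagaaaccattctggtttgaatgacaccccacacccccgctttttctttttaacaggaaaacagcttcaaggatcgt
Icosl, chr10:78069118-78069367, plus strand: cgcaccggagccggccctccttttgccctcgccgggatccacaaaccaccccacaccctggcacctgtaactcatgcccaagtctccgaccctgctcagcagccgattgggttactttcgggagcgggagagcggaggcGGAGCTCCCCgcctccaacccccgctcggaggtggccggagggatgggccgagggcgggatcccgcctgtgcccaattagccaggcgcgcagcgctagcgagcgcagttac
The Cd80 window held 1 AP-1 match, 42 bases before the start, and no other. The Cd274 window held 1 interferon regulatory factor match on the opposite strand, 76 bases before the start. An NF-kB match stood 244 bases before the start of Pdcd1lg2, and another 111 bases before the start of Icosl. None of these matches overlapped another, and no STAT match was found in the 4 windows. Of 32851 promoter entries cut to the same length, 7.25% held the NF-kB consensus, 6.75% the AP-1 motif, 7.13% the interferon regulatory factor motif and 7.02% the STAT motif. A match describes letters and says nothing of a factor's binding.

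Reads assigned to Il10 numbered 16 to 196 per library, and since the part of the gene that the allele removes is not given in the sources used here, they do not test the genotype. Libraries held 6781952 to 28289498 expected counts, and a level of 3 counts, used here as the floor, equalled 0.106 to 0.442 CPM (counts scaled to the library total). For Pdcd1lg2, near or under the floor, only bounds are given. Folds of Cd80 with JQ1 are given although some of those libraries lay under it. All 9 macrophage markers had at least 211 counts in every library, with a summed level of 12811 to 28702 TPM (the length-scaled share of transcripts in a library), against 2.11 to 8.19 TPM for 8 dendritic cell markers and 0.1 to 5.36 TPM for 6 B cell markers. The 6 T cell markers summed to 0.09 to 7.72 TPM, with Cd3d, Cd3e and Cd3g at 0 to 3 counts in each library. The 8 neutrophil markers summed to 7.50 to 87.3 TPM, with Ly6g at 0 in all libraries and S100a9 at up to 146 counts. Unstimulated replicate 1 stood apart from its group, with 51 of 9545 genes more than 2-fold above both other replicates, against 3 and 5 genes in these. To a lesser degree LPS replicate 3 (26 of 8944 genes) and LPS + IL-10 replicates 1 and 3 (15 and 23 of 8941) did so too. LPS also changed the make-up of the libraries: the median log2 difference of 12251 genes was -0.07 with the median-of-ratios scaling used here, -0.15 with TMM, -0.88 with total counts and -0.81 in TPM. In bulk RNA a lower share of cells that express a gene and less RNA per cell cannot be told apart.

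LPS raised 6 of the 7 genes, while Pdcd1lg2 stayed at a few reads per library (DESeq2 adjusted p 0.22). Over all 14965 genes tested, 31.6% were called higher. The median log2 fold change of the 7 was 4.22, against -0.07 over all genes tested. JQ1 during LPS lowered 6 of 7, all but Cd83, where 32.9% of all genes were called lower, and the median log2 fold change was -0.81 against -0.11 over all genes. That median was the same with Pdcd1lg2 set to the bound that its counts allow. IL-10 during LPS lowered 4 of the 6 genes with an adjusted p (Cd80, Cd86, Icosl and Cd83), against 8.81% of all genes, with a median of -0.52 against -0.02. With the mouse as a block, Cd40 and Cd274 also passed in that comparison, as they did in a fit of the groups compared alone. With limma on log2(TPM + 0.1), in which Pdcd1lg2 was too low to be tested, 3 genes passed for JQ1 and 2 for IL-10 during LPS.

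Without LPS the changes were fewer. JQ1 lowered Cd80, Cd274 and Cd83 and raised none, where 23.7% of all genes were called lower. With the block 5 genes passed, as Cd40 was then lower (adjusted p 0.025) and Icosl higher (0.037). Cd40 passed in 8 of 15 alternatives and Icosl in 2. Over all alternatives the adjusted p ran from 0.00085 to 0.34 for Cd40 and from 0.0053 to 0.51 for Icosl. Leaving out JQ1 replicate 3 also gave 5 calls, among them Cd40 and Pdcd1lg2, and leaving out Unstimulated replicate 1 gave 4, with Icosl higher. IL-10 alone changed none of the 7 by DESeq2, where 2.81% of all genes were called in either direction, and none had an unadjusted p under 0.05. By edgeR and limma, in which Pdcd1lg2 was too low to be tested, none of the other genes changed.

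**Figure D1:**
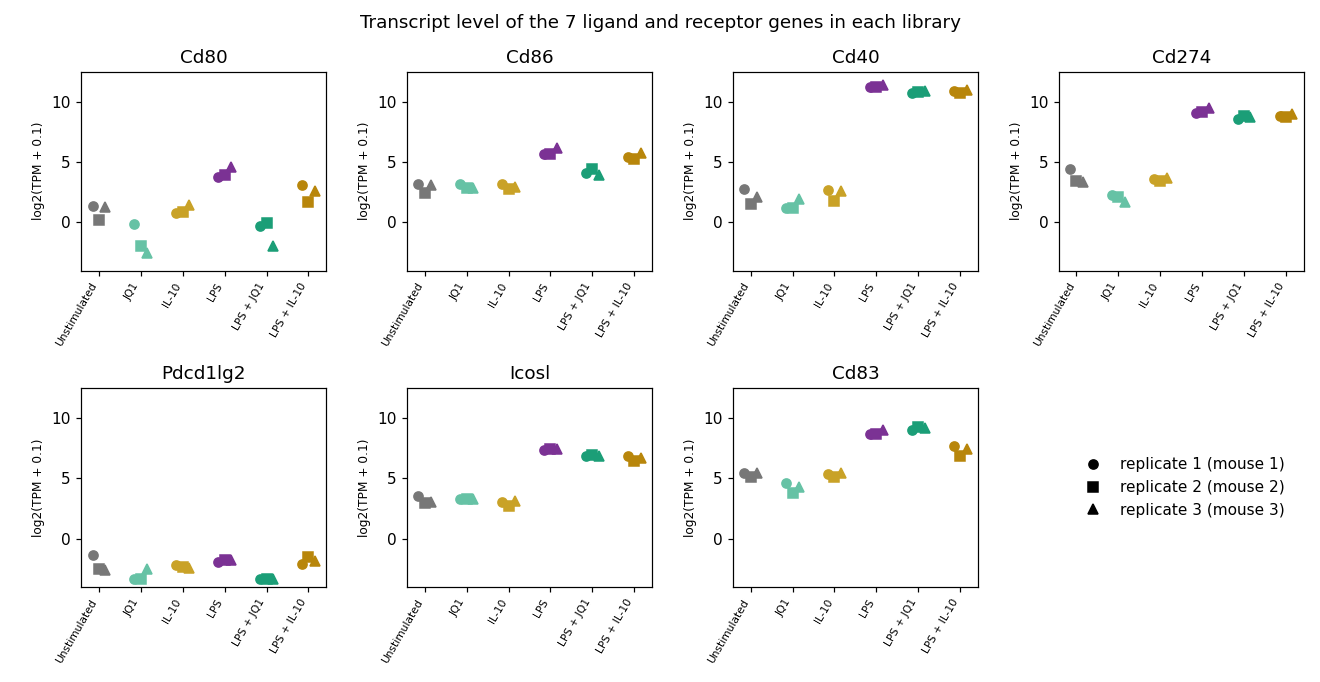
Transcript level of each of the 7 genes as log2(TPM + 0.1), with 1 point per library, grouped by treatment along the horizontal axis and with the replicate number as the shape of the point. Cd40 rose from 2.70 to 6.61 TPM in Unstimulated libraries to 2393 to 2663 TPM with LPS, Cd80 fell back to 0.16 to 0.86 TPM with LPS + JQ1, and Pdcd1lg2 stayed at or under 0.30 TPM in all 18 libraries.

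Cd80, a ligand of CD28 and CTLA-4, fell furthest with JQ1 during LPS among the 6 genes for which folds are given. LPS + JQ1 replicate 3 lay under the floor, at 2 reads. Values here are normalised counts (expected counts divided by the size factor of the library), listed by replicate number from 1 to 3. Unstimulated cells had 26.2, 11.8 and 24.8, and LPS cells 270, 289.5 and 425. LPS + JQ1 left 10, 12 and 2 reads, which scaled to 2.46 to 12.6, while LPS + IL-10 left 157, 56.2 and 100.1 normalised counts. The LPS libraries lay above all others, the LPS + IL-10 libraries between, and the LPS + JQ1 libraries overlapped the Unstimulated ones. LPS raised Cd80 15.1-fold (log2 fold change 3.91, SE 0.409, DESeq2 adjusted p 5.26e-21). JQ1 during LPS lowered it 37.0-fold (-5.21, SE 0.473, adjusted p 4.28e-27) and IL-10 3.14-fold (-1.65, SE 0.380, adjusted p 0.00021), and the 2 pretreatments differed (-3.56, SE 0.479, adjusted p 6.59e-13). The IL-10 call was lost without LPS + IL-10 replicate 3 (adjusted p 0.055) and with limma on log2(TPM + 0.1) (0.072), within a range of 6.04e-07 to 0.072 over the alternatives.

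Without LPS, Cd80 also fell with JQ1, from the values above to 10.4, 1.97 and 0.916 normalised counts, which rest on 12, 2 and 1 reads, below every Unstimulated library (log2 fold change -2.26, SE 0.553, adjusted p 0.00017). JQ1 replicate 1 held 12 of the 15 reads, and without it the value was -3.94, which rests on 2 and 1 reads, under the floor. With IL-10 alone it was at 17.3, 19.2 and 26.6. After JQ1, LPS no longer raised Cd80 past the test (0.97, SE 0.602, adjusted p 0.16), although all 3 pairs moved upward. That call came back without JQ1 replicate 1 (2.64, adjusted p 0.012) and without LPS + JQ1 replicate 3 (1.38, adjusted p 0.045), within a range of 0.012 to 0.54. LPS + JQ1 cells held less Cd80 than Unstimulated cells in the fit (-1.30, SE 0.503, adjusted p 0.017), but the libraries overlapped, 1 of 3 pairs went upward, and the call was lost with the block (adjusted p 0.095) and in 8 of 15 alternatives, with adjusted p from 0.00062 to 0.18.

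Cd86, the other ligand of CD28 and CTLA-4, kept more of its induction. Unstimulated libraries had 149.7, 94.7 and 138 normalised counts, and LPS libraries 1624.5, 1521 and 2006. LPS + JQ1 gave 431, 496 and 369, whereas 1282, 1015 and 1346 were counted after IL-10. The 3 stimulated groups did not overlap, and the LPS + JQ1 libraries remained above all Unstimulated ones. The rise with LPS was 13.2-fold (log2 fold change 3.72, SE 0.172, adjusted p 1.12e-102) and the fall with JQ1 3.97-fold (-1.99, SE 0.161, adjusted p 1.04e-33). IL-10 lowered Cd86 1.41-fold (-0.50, SE 0.158, adjusted p 0.013). That smaller fall did not pass under total-count scaling (adjusted p 0.074), with limma on TPM (0.23 and 0.20), without LPS replicate 3 (0.12) or without LPS + IL-10 replicate 2 (0.12), within a range of 0.0068 to 0.23. In cells without LPS, Cd86 was at 177, 145.9 and 138 with JQ1 and at 151, 116 and 120.5 with IL-10, which overlapped the Unstimulated libraries, and neither passed (adjusted p 0.29 and 1).

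Icosl, the ligand of ICOS, was at 208, 145 and 149 normalised counts in Unstimulated cells and at 5627, 5503 and 5120 with LPS, a 31.9-fold rise (log2 fold change 5.00, SE 0.139, adjusted p 1.54e-280). JQ1 and IL-10 lowered it to nearly the same mean, with 3151, 3095 and 3004 normalised counts in LPS + JQ1 libraries and 3734, 2577 and 2940 in LPS + IL-10 libraries. Both falls were 1.76-fold (-0.81, SE 0.125, adjusted p 3.40e-10 for JQ1 and 3.32e-09 for IL-10). The difference between the pretreatments was -0.0002 on the log2 scale with a 95% interval from -0.25 to 0.25 (adjusted p 1), and its sign turned in 10 of 15 alternatives. Under total-count scaling Icosl was higher with LPS + JQ1 (0.29, adjusted p 0.030), within a range of 0.030 to 1.00. Without LPS, Icosl stood at 210, 214 and 205 with JQ1 (0.31, SE 0.149, adjusted p 0.081), higher in each of the 3 pairs, though replicate 3 lay below Unstimulated replicate 1.

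Cd274, which encodes the PD-1 ligand PD-L1, was the second most abundant of the 7 with LPS in TPM. Its normalised counts were 545, 282 and 254 in Unstimulated cells, where replicate 1 lay above both others, and 25028, 25306 and 28591 with LPS (log2 fold change 6.18, SE 0.194, adjusted p 4.95e-221, a 72.6-fold rise). With LPS + JQ1 they were 14094, 15513 and 15451, below every LPS library (-0.81, SE 0.189, adjusted p 5.25e-05). With LPS + IL-10 they were 19624, 17171 and 19539, also below every LPS library, but the difference did not pass (-0.49, SE 0.189, adjusted p 0.056). It passed in 2 of 15 alternatives, with the mouse as a block (adjusted p 0.042) and in a fit of those groups alone (0.00064). Over the alternatives the adjusted p ran from 0.00064 to 0.39. The JQ1 call failed with limma on log2(TPM + 0.1) (adjusted p 0.0504, within a range of 4.35e-15 to 0.0504). Cd274 fell with JQ1 without LPS as well, to 133, 126 and 90.7 (-1.64, SE 0.208, adjusted p 4.80e-14), below all Unstimulated libraries. Without Unstimulated replicate 1 this fall was -1.19, and the rise with LPS was 6.63.

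Pdcd1lg2, which encodes PD-L2, was close to the detection limit in all groups. The 3 libraries held 9, 1 and 2 reads in Unstimulated cells, 0, 0 and 2 with JQ1, 7, 3 and 2 with IL-10, and 5, 8 and 6 with LPS. After LPS + JQ1 all 3 libraries held 0 reads, and after LPS + IL-10 they held 4, 6 and 7. The LPS + JQ1 group was the one without a read. With LPS + JQ1 set to a floor of 3 counts per library, its level was 2.23-fold under the LPS mean (DESeq2 adjusted p 0.00033). It was 2.05-fold under the LPS + IL-10 mean (adjusted p 0.00054). The counting error of those 2 means, which rest on 4 to 8 reads per library, is not in these bounds. Pdcd1lg2 was also called lower with LPS + JQ1 than in Unstimulated cells (adjusted p 0.0061). That call was lost without Unstimulated replicate 1 (0.11) and in a fit of those groups alone (0.054), within a range of 0.0019 to 0.11. Its difference between LPS and Unstimulated cells did not pass, but did so without Unstimulated replicate 1 (adjusted p 0.048), within a range of 0.048 to 0.84.

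Cd40, the receptor for CD40 ligand, had the steepest rise of the 7. Its normalised counts were 70.2, 30.4 and 44.9 in Unstimulated cells and 47419, 46925 and 45840 with LPS, a 935-fold rise (log2 fold change 9.87, SE 0.277, adjusted p 2.71e-276). LPS + JQ1 libraries had 26670, 27020 and 29520, and those with IL-10 35926, 29297 and 32679. Both pretreated groups lay below every LPS library and overlapped each other. The fall with JQ1 passed (-0.75, SE 0.251, adjusted p 0.0057), though not with limma on TPM (0.16 and 0.092, within a range of 3.23e-15 to 0.16). For IL-10 the value of -0.52 (SE 0.251, adjusted p 0.16) did not pass, yet it did so in 6 of 15 alternatives. These were the mouse as a block (0.0070), edgeR (0.022), total-count scaling (0.014), the length offset (0.0041), the lane (0.017) and a fit of those groups alone (0.00018). Over the alternatives the adjusted p ran from 0.00018 to 0.41. In cells without LPS, Cd40 was at 25.1, 27.6 and 44.9 with JQ1 and at 64.4, 36.1 and 60.6 with IL-10, and both overlapped the Unstimulated libraries. Even after JQ1, LPS raised it by 9.74 on the log2 scale (SE 0.287, adjusted p 3.30e-249).

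Cd83, the maturation marker, was the one gene of the 7 not called lower with JQ1 during LPS, while IL-10 lowered it. The normalised counts were 598, 528 and 617 without stimulation, and 10738, 10345 and 11542 after LPS. They were 10480, 11450 and 11531 in LPS + JQ1 libraries, but 5065, 2614.5 and 3727 when IL-10 preceded LPS. The LPS and LPS + JQ1 libraries overlapped, and all LPS + IL-10 libraries lay below both. LPS raised it 18.7-fold (log2 fold change 4.22, SE 0.182, adjusted p 9.52e-118). The difference with JQ1 was 0.04 on the log2 scale with a 95% interval from -0.31 to 0.39 (adjusted p 0.88), and under total-count scaling, where the median of 12251 genes was 0.23 in place of -0.09, it was 0.41 (adjusted p 0.037, within a range of 0.037 to 1.00). IL-10 lowered Cd83 2.86-fold (-1.52, SE 0.179, adjusted p 2.49e-15). Cd83 was the only one of the 7 that was higher after JQ1 than after IL-10 during LPS (1.55, SE 0.179, adjusted p 3.56e-17). Without LPS, JQ1 lowered it to 385, 236 and 319, below all Unstimulated libraries (-0.89, SE 0.187, adjusted p 9.57e-06).

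**Figure D2:**
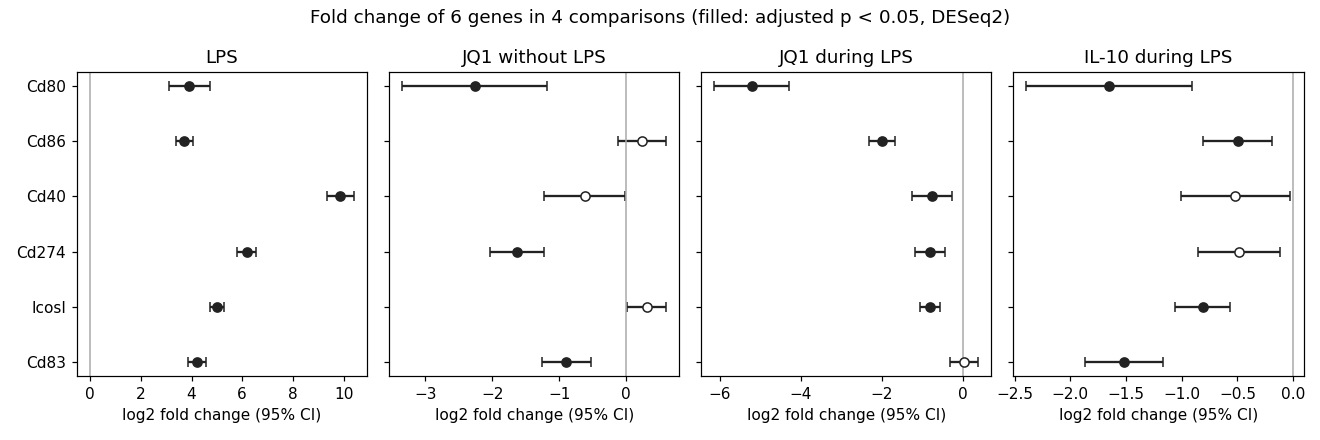
Log2 fold change of 6 genes in 4 comparisons, with 95% confidence intervals from the DESeq2 fit of all 18 libraries and filled points where the adjusted p was under 0.05. Each panel has its own horizontal scale. JQ1 during LPS ran from -5.21 for Cd80 to 0.04 for Cd83, and IL-10 during LPS from -1.65 for Cd80 to -0.49 for Cd274.

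In the direct comparison of the 2 pretreatments during LPS, 3 genes were lower with JQ1 (Cd80, Cd86 and Pdcd1lg2) and 1 was higher (Cd83), where 31.6% of all genes were called lower and 23.8% higher. For Cd40 (-0.23, 95% interval -0.73 to 0.26), Cd274 (-0.32, -0.69 to 0.05) and Icosl no difference passed, although the Cd274 libraries did not overlap and it passed in a fit of those groups alone (adjusted p 0.021, within a range of 0.021 to 0.88). LPS after JQ1 raised 5 of 7 genes, against 27.6% of all genes, and LPS after IL-10 raised 6 of 7, against 33.2%. Cells given LPS + JQ1 held more of 5 genes and less of Cd80 and Pdcd1lg2 than Unstimulated cells, where 30.1% of all genes were called higher and 32.3% lower. Without Unstimulated replicate 1 these 2 lower calls were both lost.

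The share of the LPS level that remained was also computed between libraries of the same replicate number, taken as the same mouse. Deviations from the group mean correlated at -0.09 between same-numbered LPS + JQ1 and LPS libraries, against 0.04 for other pairs. For LPS + IL-10 and LPS these means were 0.57 and -0.27. The same-numbered values thus do not show the pairing for the JQ1 shares. As deviations within a group sum to 0 for each gene, the mean of the other pairs largely follows from that of the same-numbered ones. With JQ1, Cd80 kept 4.09%, 4.37% and 0.580% in mice 1, 2 and 3, the last of which rests on 2 reads. Cd86 kept 26.5%, 32.6% and 18.4%. Cd40, Cd274 and Icosl kept 59.4% ± 4.37 (SD, n = 3), 57.2% ± 3.71 and 57.0% ± 1.48, and Cd83 103% ± 6.99. With JQ1 the shares of Cd80, of Cd86, of Cd40, Cd274 and Icosl together, and of Cd83 did not overlap. With IL-10 the shares lay closer together for most genes, at 70.9% ± 6.91 for Cd86, 69.8% ± 6.78 for Cd40, 71.5% ± 5.96 for Cd274 and 56.9% ± 9.78 for Icosl. Cd83 kept 34.9% ± 11.2, and Cd80 58.1% in mouse 1 against 19.4% and 23.6% in the others. In TPM, which is divided by the total of each library, the shares with JQ1 were higher, at 73.3% ± 2.19 for Cd40 and 127% ± 15.8 for Cd83.

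**Figure D3:**
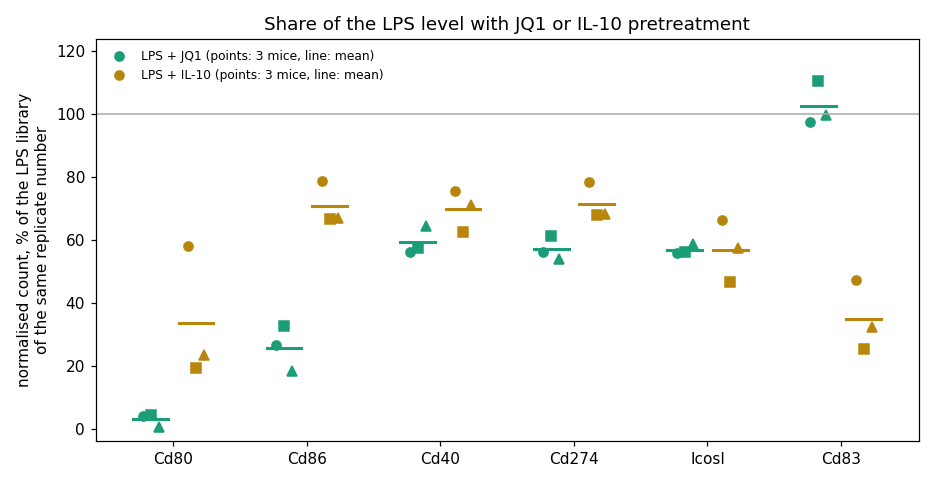
Normalised count with LPS + JQ1 or LPS + IL-10 as a percent of the LPS library of the same replicate number, for 6 genes, with 1 point per mouse and a line at the mean. The grey line marks the LPS level. With JQ1, Cd80 kept 3.01% and Cd83 103% on average, whereas with IL-10 these 2 genes kept 33.7% and 34.9%.

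Ratios within a library do not depend on how libraries are scaled. In TPM, the ratio of Cd80 to Cd86 was 0.249 ± 0.0476 (SD, n = 3) in Unstimulated cells and 0.295 ± 0.0351 after LPS. LPS + JQ1 gave 0.0299 ± 0.0170, and LPS + IL-10 0.131 ± 0.0540. JQ1 alone gave 0.0406 ± 0.0439. The LPS + JQ1 libraries lay below those of every group without JQ1, and the JQ1 libraries overlapped the LPS + IL-10 ones. The ratio of Cd274 to Cd86, an inhibitory over a costimulatory ligand, was 1.92 ± 0.620 in Unstimulated cells, 10.5 ± 0.821 with LPS and 10.6 ± 0.848 with LPS + IL-10, but 24.0 ± 3.93 with LPS + JQ1, where the lowest library had 21.3 and the highest LPS library 11.3. Without LPS the same ratio was 0.516 ± 0.0710 with JQ1, below every Unstimulated library. The ratio of Cd83 to Cd86, at 7.69 ± 0.671 with LPS, was 31.6 ± 5.25 after JQ1 and 3.73 ± 0.901 after IL-10. The ratios are described without a test.

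**Figure D4:**
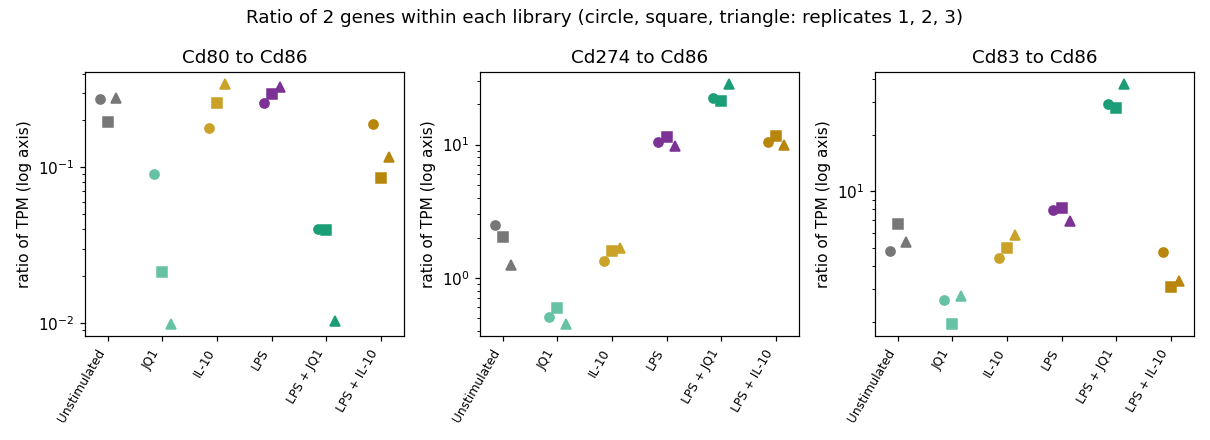
Ratio of the TPM of Cd80, Cd274 and Cd83 to that of Cd86 in each of the 18 libraries, on log axes, with the replicate as the shape of the point. The Cd274 to Cd86 ratio of the 3 LPS + JQ1 libraries lay between 21.3 and 28.6, above the LPS libraries at 9.71 to 11.3, and the Cd80 to Cd86 ratio of the same libraries ran from 0.0103 to 0.0398.

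By level per length, in TPM, the order in Unstimulated cells was Cd83 (40.9 ± 4.70, SD, n = 3), Cd274 (14.4 ± 6.56), Icosl (9.01 ± 2.03), Cd86 (7.48 ± 1.90), Cd40 (4.52 ± 1.97), Cd80 (1.92 ± 0.773) and Pdcd1lg2 (0.143 ± 0.136). Cd274 overlapped Icosl, Icosl overlapped Cd86 and Cd86 overlapped Cd40 in that order. With LPS, Cd40 came first at 2512 ± 138 TPM, a level exceeded by 33 of 14934 detected genes, followed by Cd274 (613 ± 92.1), Cd83 (448 ± 56.0), Icosl (169 ± 4.30), Cd86 (58.9 ± 13.0) and Cd80 (17.6 ± 5.89), and no neighbours overlapped. JQ1 during LPS placed Cd83 (565.5 ± 50.6) before Cd274 (431 ± 40.5). With LPS + IL-10 Cd83 came to 167 ± 46.8 TPM and overlapped Icosl at 103 ± 15.0. Summed over the 7 genes, the level was 78.4 ± 15.5 TPM in Unstimulated cells, 3818.5 ± 307 with LPS, 2976 ± 215 when JQ1 and 2681 ± 266 when IL-10 came first, of which Cd40 made up 5.58%, 65.9%, 61.9% and 70.5%.

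Whether the effect of a pretreatment differed with and without LPS was tested by interactions. For JQ1, 5 of 7 passed. The effect of JQ1 was lower with LPS than without it for Cd80 (-2.94), Cd86 (-2.23) and Icosl (-1.12), and higher for Cd274 (0.83) and Cd83 (0.93), where 23.8% of all genes were called lower and 17.7% higher. For IL-10, Cd83 passed (-1.40), against 3.44% of all genes called lower, and with the block Icosl passed too (-0.54, adjusted p 0.022, within a range of 0.00073 to 0.27). Without Unstimulated replicate 1, 4 genes passed the IL-10 interaction, namely Cd40, Cd274, Icosl and Cd83, and 3 passed without IL-10 replicate 2 or without LPS + IL-10 replicate 1. The JQ1 interaction of Cd80 was lost without JQ1 replicate 1 (-1.27, adjusted p 0.35, within a range of 1.90e-05 to 0.35). With Unstimulated replicate 1 left out the JQ1 interaction of Cd274 was 0.38 (adjusted p 0.0497).

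Markers of other cells moved with some of these comparisons, in which JQ1 lowered 23.7% of all genes without LPS and 32.9% during LPS, and raised 24.4% during LPS. These shares are over genes with an adjusted p, and so are the marker counts below, while sums are over whole lists. Of 8 neutrophil markers 5 had an adjusted p, and 3 of these 5 fell with JQ1, both without and during LPS. The list summed to 24.3 to 87.3 TPM in Unstimulated and 7.50 to 17.5 in JQ1 libraries. During LPS the sums were 35.9 to 51.7 in LPS and 13.3 to 30.1 in LPS + JQ1 libraries. The dendritic cell markers had 3 of 7 lower with JQ1 during LPS, with sums of 6.17 to 8.19 TPM with LPS and 3.59 to 4.38 with LPS + JQ1. Of 6 B cell markers 4 had an adjusted p in that comparison and 1 fell, with sums of 0.92 to 1.56 and 0.10 to 0.68 TPM. Without LPS, JQ1 lowered 2 of 7 dendritic cell markers (4.07 to 7.63 against 2.11 to 3.04 TPM) and 1 of 3 B cell markers (2.34 to 5.36 against 0.27 to 0.57 TPM). LPS raised 3 of 7 dendritic cell markers, where 31.6% of all genes rose. IL-10 during LPS lowered 1 of the 4 with an adjusted p, where 8.81% of all genes fell, and the list summed to 2.87 to 4.28 TPM. Of 6 T cell markers 4 had an adjusted p with LPS and 2 with JQ1 during LPS. Lck and Cd247 rose with LPS and fell with JQ1. The list summed to 7.41 to 7.72 TPM with LPS and 0.29 to 0.95 with LPS + JQ1, while the defining Cd3 genes stayed at 0 to 3 counts. Among 9 macrophage markers 6 fell and 2 rose with JQ1 during LPS. Their part in the changes of Cd80, Cd86 and the others was not tested.

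The counts of the gene lists that follow stand beside these shares of all genes tested: LPS raised 31.6% and lowered 32.9%, JQ1 during LPS raised 24.4% and lowered 32.9%, and IL-10 during LPS raised 8.38% and lowered 8.81%. Of 9 other B7-related and co-inhibitory ligands 8 had an adjusted p. LPS raised 5 and lowered 3, and JQ1 during LPS lowered 6 and raised 1, while IL-10 during LPS lowered 2. Pvr, the ligand of TIGIT and CD226, rose with LPS by 4.26 on the log2 scale (adjusted p 5.17e-126) and fell with JQ1 by 1.88 and with IL-10 to a mean of 41.3 TPM against 84.4 with LPS (adjusted p 4.70e-10). Nectin2, bound by the same receptors, rose by 3.80 and fell with JQ1 by 2.85 (adjusted p 1.22e-75), with -0.09 for IL-10 (adjusted p 0.80). Lgals9 (galectin-9) rose with LPS by 3.81 and fell with JQ1 by 1.51, from 612 to 265 TPM, while IL-10 left 596 TPM (adjusted p 0.44). Cd48, the ligand of CD244 and CD2, fell with JQ1 by 2.91 (adjusted p 3.18e-188), to a mean of 35.3 TPM against 216 with LPS and 221 in Unstimulated cells. Tnfrsf14 (HVEM) fell with JQ1 by 2.54. The list's median log2 fold change with JQ1 during LPS was -2.21, against -0.11 over all genes tested, and with IL-10 it was -0.12 against -0.02.

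Of 7 TNF-family costimulatory ligands 6 rose and 1 fell with LPS, and with JQ1 during LPS 5 fell and 1 rose. IL-10 during LPS lowered 1 and raised 1 of the 4 with an adjusted p. The shares of all genes were 31.6% higher and 32.9% lower with LPS, JQ1 raised 24.4% and lowered 32.9%, and IL-10 raised 8.38% and lowered 8.81%. The median log2 fold change of the list was 5.39 with LPS, -2.05 with JQ1 and -0.69 with IL-10, against -0.07, -0.11 and -0.02 over all genes. Several of these genes were near the floor, and 3 of the 7 had at most 3 reads in every LPS + JQ1 library. The JQ1 median was the value of Tnfsf18, which had 5 to 13 reads with LPS and 1 to 3 with LPS + JQ1. Cd70 had 1 to 4 reads with LPS. Tnfsf14, the gene that fell with LPS and rose with JQ1, had 0 to 3 reads with LPS and 8 to 12 with LPS + JQ1. Tnfsf15 (TL1A) went from 0.197 TPM in Unstimulated cells to 47.2 with LPS, and fell to 1.71 with LPS + JQ1 (log2 fold change -5.08, adjusted p 1.92e-50). IL-10 left it at 35.5 TPM (adjusted p 0.33). Tnfsf4 (OX40 ligand) had 0 or 1 reads in Unstimulated libraries and 240 to 402 with LPS, and fell with JQ1 by 3.36 on the log2 scale (adjusted p 1.68e-36) and with IL-10 by 1.19 (adjusted p 6.36e-06). Tnfsf9 (4-1BB ligand) fell with JQ1 by 0.72 (adjusted p 1.16e-08) but rose with IL-10 by 0.95 (adjusted p 3.07e-14), to 105 TPM against 50.4 with LPS.

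Downstream of CD40, 9 of 11 signalling genes rose and 2 fell with LPS. JQ1 during LPS lowered 6 and raised 3, and IL-10 lowered 1 and raised 1. Over all genes, 31.6% were higher and 32.9% lower with LPS, and JQ1 raised 24.4% and lowered 32.9%, IL-10 8.38% and 8.81%. The list's median was 2.68 with LPS, -0.38 with JQ1 (-0.11 over all genes) and -0.15 with IL-10 (-0.02 over all genes). Traf1, an adaptor of TNF receptors, rose by 7.63 on the log2 scale with LPS and fell with JQ1 by 3.81 (adjusted p 6.36e-34), from 279 to 24.6 TPM. Tank rose by 3.52 and fell with JQ1 by 1.45. Nfkb2, the precursor of the p52 subunit, rose by 4.33 and fell with JQ1 by 0.52 (adjusted p 0.00010). Map3k14, the kinase NIK of the noncanonical NF-kB pathway, went the other way, falling from 16.7 to 19.1 TPM in Unstimulated libraries to 1.01 to 1.39 with LPS, and was higher with LPS + JQ1, at 9.14 to 9.85 TPM (2.58, adjusted p 4.53e-63).

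Of 8 genes known to act on the ligand proteins, 4 rose and 4 fell with LPS, 3 rose and 5 fell with JQ1 during LPS, and 1 rose and 2 fell with IL-10 during LPS. These stand beside 31.6% higher and 32.9% lower of all genes for LPS, 24.4% higher and 32.9% lower for JQ1, and 8.38% higher and 8.81% lower for IL-10. Medians were 0.20, -0.62 and -0.0040, against -0.07, -0.11 and -0.02 over all genes. March1, whose product ubiquitinates CD86 and MHC class II and removes them from the surface, moved in opposite directions with the 2 pretreatments. Its level was 20.6 to 23.9 TPM in Unstimulated libraries, 6.21 to 11.3 with LPS, 0.22 to 0.42 with LPS + JQ1 and 43.8 to 78.7 with LPS + IL-10, and these 4 groups did not overlap. The log2 fold change during LPS was -4.95 with JQ1 (adjusted p 1.86e-57) and 2.83 with IL-10 (adjusted p 5.69e-56). Cmtm6, which stabilises PD-L1 protein, rose with LPS by 2.40 and fell with JQ1 by 0.71 and with IL-10 by 0.28 (adjusted p 7.08e-24 and 0.00054). Its relative Cmtm4 fell with LPS, from 13.3 to 1.59 TPM. The sheddase Adam17 rose by 1.75 and fell with JQ1 by 0.95 (adjusted p 2.60e-20).

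Among 10 transcription factors known to act on these genes, 8 rose and 1 fell with LPS, 7 fell with JQ1 during LPS and 5 fell with IL-10 during LPS, with none raised in the last 2. Of all genes, LPS raised 31.6% and lowered 32.9%, while 32.9% fell with JQ1 and 8.81% with IL-10. The list's medians were 2.66, -0.53 and -0.27, against -0.07, -0.11 and -0.02. Irf1 rose by 4.38 on the log2 scale and fell with JQ1 by 1.07 (adjusted p 0.00015) and with IL-10 by 0.90 (0.0064). Spi1 (PU.1) fell with JQ1 by 1.55 (adjusted p 5.07e-42), with 0.05 for IL-10 (0.87). Irf8 fell with IL-10 by 1.45 (adjusted p 9.00e-18) and with JQ1 by 0.78. Nfkb1 rose by 4.17 and fell by 0.40 with JQ1 and with IL-10, whereas Rel, which rose by 4.02, fell with IL-10 by 0.69 (adjusted p 5.36e-08) and showed 0.10 with JQ1 (0.50). Of the 5 T cell receptors of these ligands, Ctla4 and Cd40lg were at 0 in all libraries, and Cd28 alone passed a test. Its level was 11.4 TPM in Unstimulated cells, 2.77 with JQ1 and 0.427 with LPS (-3.99, adjusted p 2.16e-34).

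**Figure D5:**
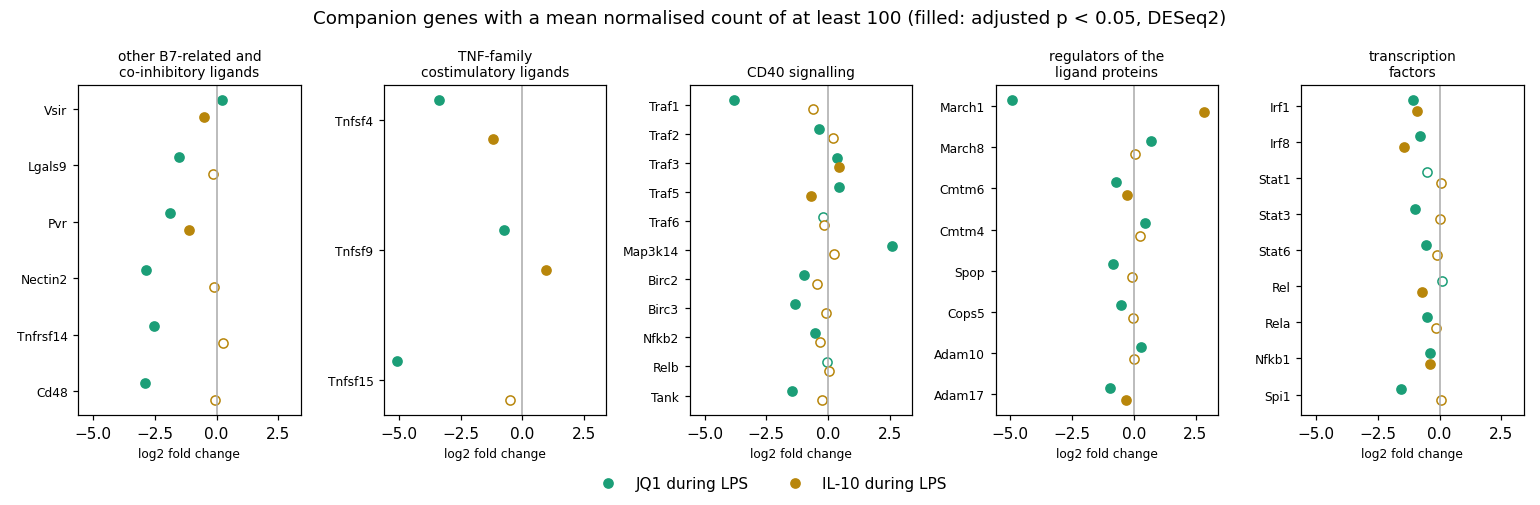
Log2 fold change during LPS with JQ1 (green) and with IL-10 (gold) for the genes of 5 companion lists whose mean normalised count reached 100, with filled points where the DESeq2 adjusted p was under 0.05. March1 lay at -4.95 with JQ1 and 2.83 with IL-10, and Map3k14 at 2.58 with JQ1.

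Over all 18 libraries, the genes whose variance-stabilised values followed a member most closely, among 8378 other genes (8377 for the members that themselves passed this limit) whose mean normalised count reached 100, were Tmpo, Apol7c and Poglut1 for Cd80 (Pearson r from 0.972 to 0.984), Sco1, Gabpb1 and Acvr1 for Cd86, Ccl4, Dusp2 and Cxcl10 for Cd40 (0.999), St3gal1, Parp14 and Icam1 for Cd274, Hivep1, Cd69 and Cdkn1a for Icosl, and Ccl2, Mab21l3 and Ccl7 for Cd83. For Pdcd1lg2 they were 6430706D22Rik, H2-Ab1 and Jade2 (0.929 to 0.930), at counts near the floor. Poglut1 lies 29399 bases from Cd80 on mm9. The 18 points share 3 mice and 6 treatment groups. Within the 9 libraries given LPS, the closest genes were Rgs1, Tbc1d23 and Pip5k1a for Cd80, Hgf, Glipr1 and Cenpe for Cd86, Il12b, Tnf and Blnk for Cd40, Litaf, Maml2 and Plau for Cd274, Socs7, Cdkn1a and St3gal5 for Icosl, Ccl2, A630072M18Rik and Mab21l3 for Cd83, and Cd33, Tnfsf12 and Pld4 for Pdcd1lg2.

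Among the members themselves, over the same 9 libraries, Cd80 had r = 0.962 with Cd86, 0.974 with Cd274 and 0.938 with Cd40, and Cd40 had 0.968 with Cd274 and 0.934 with Icosl. Cd83 stood apart, with 0.025 against Cd80, -0.226 against Cd86, 0.141 against Cd274 and 0.531 against Icosl. The 9 points share mice, lanes and a 3-group design, so these coefficients describe the group means more than separate observations.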

How the data were processed

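RNA-seq was analysed in 18 libraries, 6 groups of 3 assigned by title. The authors prepared stranded libraries depleted of ribosomal RNA, sequenced paired ends, used STAR for alignment to mm9 and then RSEM 1.2.31 with its defaults, which assign reads without regard to strand. The deposited expected counts, which are the authors' estimates, were not whole for 5.40% to 6.63% of genes and were rounded. The deposited TPM, scaled by the authors for length, served for levels, ratios and limma, and the deposited effective lengths gave an offset. FPKM, deposited by the authors as fragments scaled by length and depth, was not used.

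The DESeq2 1.42.0 Wald test (R 4.3.3) was fitted to all 18 libraries with a single term for group, after the study's methods, and p-values were adjusted by Benjamini-Hochberg over all genes tested, with calls under 0.05. Alternatives were edgeR 4.0.16, limma 3.58.1 on log2(TPM + 0.1) or log2(TPM + 1), other scalings, a filter of 10 counts in 3 libraries, lane, block, fewer groups and left-out libraries. DESeq2 with and without the block, edgeR and limma on log2(TPM + 0.1) were tested on simulated data. The other alternatives and the interactions were not. In the simulation a small set of genes changed in the LPS group alone, with no mouse effect and no wider shift in make-up. It therefore could not test how the block or the scaling acts on the real libraries.

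The labels describe matched cultures of 3 mice, so replicate numbers were taken as mice. Deviations of same-numbered libraries correlated from -0.12 to 0.57 by comparison, as a mean over 12251 genes. Replicate 1 was on lane 7, replicate 3 on lane 8, and replicate 2 on lane 7 without and lane 8 with LPS. Replicates differed by 3.97 to 28.3 in chi-square per degree of freedom, so none was a duplicate deposit. Floors cover counting error only.

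The genes and lists were chosen with earlier results of these data known. All 7 genes were named, with at most 3 genes per companion list and direction (called, mean normalised count at least 100) and the 3 genes most alike each member. Plain ratios replaced log2 ratios, as Pdcd1lg2 reached 0. The ratio of Cd83 to Cd86 was added after its values were seen, and that of Cd40 to Cd86 was not planned either.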

Additional observations from a re-analysis of the deposited data

Results flagged for a closer look

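The effect of JQ1 differed with and without LPS, by the interaction term of the DESeq2 fit, for 5 genes. On the log2 scale the interaction was -2.94 for Cd80 (SE 0.728, adjusted p 0.00024), -2.23 for Cd86 (SE 0.243, adjusted p 1.61e-18) and -1.12 for Icosl (SE 0.195, adjusted p 7.53e-08). Cd86 and Icosl had positive values with JQ1 alone that did not pass, at 0.24 and 0.31, and fell with JQ1 during LPS. The interaction was 0.83 for Cd274 (SE 0.281, adjusted p 0.010) and 0.93 for Cd83 (SE 0.259, adjusted p 0.0013). Cd274 fell more with JQ1 alone (-1.64) than during LPS (-0.81), and Cd83 fell with JQ1 alone (-0.89) and lay at 0.04 during LPS.

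The Cd80 interaction did not pass without JQ1 replicate 1 (-1.27, adjusted p 0.35). That library held 12 of the 15 Cd80 reads of its group. The Cd274 interaction did not pass without JQ1 replicate 3, without LPS replicate 2 or in a fit of the 4 groups alone, with adjusted p up to 0.085.

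For IL-10 the interaction was -1.40 for Cd83 (SE 0.257, adjusted p 3.59e-06), which passed in all 21 alternatives.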

How the results depend on the processing

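The counts of called genes moved by more than 1.5 times in the following cases, and the cause was not tested. For JQ1 without LPS the main count of 3 became 5 with the replicate block, and ran from 3 to 5 with 1 library left out. For JQ1 during LPS the count of 6 became 3 with limma on log2(TPM + 0.1), a fit in which Pdcd1lg2 was too low to be tested. For IL-10 during LPS the count of 4 became 2 with that same fit. For the interaction of LPS and IL-10 the count of 1 became 2 with the replicate block, with the lane covariate and in a fit of the 4 groups alone, and ran from 1 to 4 with 1 library left out (4 without Unstimulated replicate 1, 3 without IL-10 replicate 2 or LPS + IL-10 replicate 1). Of the other counts, 93 under alternatives and 74 with a library left out stayed within 1.5 times. The block changed no call other than those given beside their results.

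Single genes turned sign only where the main value had not passed. For IL-10 without LPS, Cd80 was 0.11 and 0.061 with limma (pseudocounts 0.1 and 1) and 0.045 with the block, and ran from -0.30 to 0.14 with a library left out. Cd86 was 0.090, 0.078, 0.0068 with the block and 0.0016 in a fit of those groups alone, with a range of -0.14 to 0.12. Cd40 ran from -0.086 to 0.46 and Cd274 from -0.54 to 0.12. For LPS + JQ1 against LPS + IL-10, Cd40 was 0.048 under total-count scaling, and Icosl was 0.094 with edgeR, 0.29 under total-count scaling, 0.21 with either limma fit, 0.11 with the length offset, 0.012 with the block, 0.0077 with the lane and 0.077 in a fit of those groups alone, with a range of -0.11 to 0.16. The JQ1 interaction of Cd40 was 0.0082 with edgeR, 0.45 under total-count scaling, 0.24 and 0.10 with limma, and ran from -0.44 to 0.20. The IL-10 interaction of Cd274 ran from -0.61 to 0.058.

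Depth limits Pdcd1lg2, with 0 to 9 reads per library, and Cd80 in the JQ1 and LPS + JQ1 libraries, with 1 to 12 reads, so that folds, shares and ratios of Cd80 that rest on these libraries are imprecise.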
